A study of Mus musculus with 2 samples.

Results

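Genes for 10 proteins that read methylated lysine 36 of histone H3 were examined for the mark that these proteins bind. The genes, chosen by name as PWWP-domain and chromodomain readers, were Psip1, Hdgf, Brpf1, Brpf3, Brd1, Zmynd11, Glyr1, Pwwp2a, Morf4l1 and Msl3. All 10 were found among the 21911 protein-coding genes used. H3K36me3 ChIP-seq was available from 2 biological replicates of untreated E14TG2a.4 cells, a male line of mouse embryonic stem cells from strain 129/Ola, labelled as embryonic with an age of 3.5 days. Both samples form a single group from one line, so nothing in the series was compared between conditions, no test was possible, and errors below are SDs over n = 2 samples.

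H3K36me3 is laid down along transcribed genes by SETD2, which travels with elongating RNA polymerase II, and it usually builds up towards the 3′ end. Reader proteins hold the methylated tail in an aromatic cage, most often in a PWWP domain, which also touches the nucleosomal DNA, or in a chromodomain. In embryonic stem cells the mark is known for guiding DNA methylation into gene bodies, splicing factors to transcripts, and acetyltransferase and deacetylase complexes to transcribed chromatin.

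The deposited peaks of the 2 replicates numbered 107779 and 98185 and covered 139 and 127 Mb of the mm10 genome. The fold enrichment of each peak is the authors' own value, and its median was 4.37 in replicate 1 and 4.996 in replicate 2. The number of reads behind the peaks is unknown, so no counting error can be given. All 8 genes listed as marking pluripotent cells, Pou5f1, Nanog and Sox2 among them, had at least 10% of the body in peaks in each replicate, against 37.2% of all coding genes. Of 10 listed genes of fibroblasts, endoderm, mesoderm, muscle and neural cells, 9 had no covered base, as did 50.1% of all coding genes, and the exception was Pax6, covered over 16.8% and 21.9%.

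Reference sequence is shown first for 3 of the reader genes, to set the sequence upstream of their starts beside that under their peaks. Each window has 150 bases, reads 5′ to 3′ on the gene's strand, and has every CpG dinucleotide in capitals. Upstream windows end at the last base before the RefSeq start site and overlap no annotated exon. Summit windows are centred on the summit of the gene's highest H3K36me3 peak and lie in introns of their gene. The letters are those of the reference GRCm38.p6, the assembly that mm10 names, and not of the 129 strain.
Hdgf upstream (chr3:87906171-87906320, plus strand): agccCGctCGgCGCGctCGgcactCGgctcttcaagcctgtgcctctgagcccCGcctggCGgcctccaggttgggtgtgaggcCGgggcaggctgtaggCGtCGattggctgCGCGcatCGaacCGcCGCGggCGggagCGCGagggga
Brpf1 upstream (chr6:113306987-113307136, plus strand): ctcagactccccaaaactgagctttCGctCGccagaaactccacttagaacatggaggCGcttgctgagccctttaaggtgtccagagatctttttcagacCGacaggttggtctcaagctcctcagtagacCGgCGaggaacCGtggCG
Brpf1 summit, replicate 2 (chr6:113317703-113317852, plus strand): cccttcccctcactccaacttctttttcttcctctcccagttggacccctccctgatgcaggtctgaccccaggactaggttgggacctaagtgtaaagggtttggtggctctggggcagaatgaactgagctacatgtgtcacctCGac
Pwwp2a upstream (chr11:43681848-43681997, plus strand): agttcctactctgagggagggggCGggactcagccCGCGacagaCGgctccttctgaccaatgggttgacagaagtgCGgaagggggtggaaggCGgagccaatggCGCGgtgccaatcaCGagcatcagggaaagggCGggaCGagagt
Pwwp2a summit, replicate 2 (chr11:43684436-43684585, plus strand): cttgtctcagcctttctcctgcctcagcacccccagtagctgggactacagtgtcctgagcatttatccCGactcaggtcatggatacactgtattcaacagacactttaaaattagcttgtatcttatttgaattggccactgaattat
The upstream windows held 20 CpG in Hdgf, 8 in Brpf1 and 11 in Pwwp2a, against 1 in the summit window of Brpf1 and 1 in that of Pwwp2a. RefSeq promoter entries of 300 bases, from 250 before to 50 after the start, were found for 9 of the 10 genes, all but Psip1. They held between 9 CpG (Zmynd11) and 41 (Glyr1), with a median of 33, against a median of 7 over 32851 promoter entries. No base of these 9 promoters was covered by an H3K36me3 peak in either replicate, as was the case for 97.5% of all entries. The GC box GGGCGG, searched on both strands, was in 8 of the 9 promoters and in 35.7% of all entries, and the exception was Zmynd11. CCAAT was in 5 of 9 and in 37.4% of all entries. TATAAA was in 0 of 9 and in 13.6% of all entries, CCGGAA in 0 of 9 and 14.9%, and GCGCATGC in 0 of 9 and 2.71%. GGGCGG holds a CpG itself, so the first count is not separate from the CpG counts.

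The reader genes fell into 8 with broad H3K36me3 and 2 almost without it. Each body was also cut into a 5′, a middle and a 3′ section of equal length. The covered share, the percentage of bases of the annotated gene body inside peaks, ran from 93.0% ± 0.572 (SD, n = 2) in Glyr1 to 4.35% ± 1.44 (SD, n = 2) in Zmynd11. With a gene called marked at 10% or more in each replicate, 8 of the 10 were marked, against 37.2% of all coding genes and 47.5% of the 11105 coding genes within the readers' range of lengths, 9.81 to 80.5 kb. All 8 also reached 50% in each replicate, as did 19.3% of all coding genes and 51.7% of the marked ones. Psip1, Brpf1, Brpf3, Brd1 and Glyr1 reached 80% in each replicate, which 5.66% of all coding genes did. The median over the 10 genes, the 2 unmarked ones included, was 79.9% in replicate 1 and 79.1% in replicate 2. The medians of all marked genes were 57.1% and 52.9%.

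**Figure D1:**
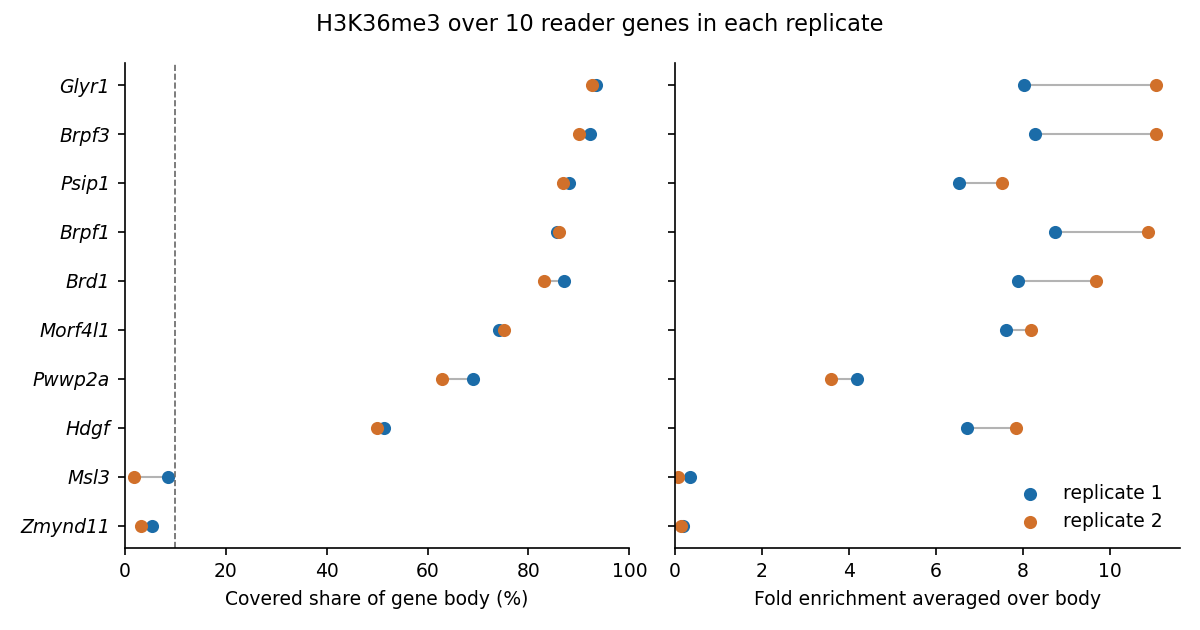
Covered share of the gene body (left, %) and authors' fold enrichment averaged over the body (right), for each reader gene, 1 point per replicate, joined by a line. For the fold, every base of a peak has that peak's single value and bases outside peaks are at 0. The dashed line marks 10%. Glyr1 to Hdgf lie between 50.04% and 93.4%, and Msl3 and Zmynd11 lie below 10% in both replicates.

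In descending order of the mean the genes were Glyr1, Brpf3, Psip1, Brpf1, Brd1, Morf4l1, Pwwp2a, Hdgf, Msl3 and Zmynd11. The replicate values overlapped between the neighbours Brpf1 and Brd1 and between Msl3 and Zmynd11. The other neighbours were separated in both replicates, by 1.61 points of the mean between Psip1 and Brpf1 and by 45.5 points between Hdgf and Msl3. The authors' fold averaged over the body gave another order among the marked genes: Brpf1, Brpf3 and Glyr1 were between 8.03 and 11.1, and Pwwp2a was lowest with 4.18 in replicate 1 and 3.59 in replicate 2.

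Psip1 and Hdgf belong to the family named after hepatoma-derived growth factor, whose members have a PWWP domain at the N terminus. Psip1 encodes LEDGF, which tethers lentiviral integrase and MLL complexes to transcribed chromatin. The gene lies on the minus strand of chromosome 4, from 83455680 to 83486459 (30.8 kb). It was covered over 88.1% in replicate 1 and 86.9% in replicate 2, a mean of 87.5% ± 0.839 (SD, n = 2). Coverage was high along its whole length and started close to the start site, with the first covered base 0.946 kb in replicate 1 and 1.52 kb in replicate 2 downstream of it.

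The last 11.997 kb of Psip1, 39.0% of its body, overlap the end of Snapc3, a coding gene on the opposite strand. ChIP-seq has no strand, so the mark there cannot be assigned to either gene. In the 18.8 kb that belong to Psip1 alone, coverage was 87.0% and 84.8% in the replicates, and in the shared stretch it was 89.7% and 90.1%. Snapc3 outside Psip1 was covered over 63.4% and 51.9%. Coverage of Psip1 was thus 85.9% ± 1.55 (SD, n = 2) without the shared stretch. Within the part of Psip1 free of Snapc3, coverage of the 5′, middle and 3′ sections was 73.1%, 87.9% and 100% in replicate 1 and 67.2%, 92.0% and 95.2% in replicate 2.

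Psip1 also makes short transcripts, of the kind that encode the p52 isoform without the integrase-binding domain. These end at 83461871. Up to that point the gene was covered over 87.7% and 86.3%, and over the 6.19 kb past it, all inside the overlap with Snapc3, over 89.6% and 89.0%. In the 5 kb just before that end it was 92.4% and 93.5%, slightly above the stretch past it in both replicates. Those 5 kb also lie inside the overlap with Snapc3, which reaches 83467676.

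Hdgf encodes the growth factor of that name, a nuclear protein that is also secreted. It spans 9.81 kb on the plus strand of chromosome 3, from 87906321 to 87916132, and is the shortest of the 10. Its coverage was 51.3% in replicate 1 and 50.04% in replicate 2, split sharply along the gene. The 5′ section had no covered base, the middle section was covered over 53.9% and 50.1%, and the 3′ section was covered whole, in both replicates. The first covered base lay 4.78 kb and 4.76 kb after the start, in the intron before the fifth exon block, and 4 of its 10 exon blocks were uncovered in both. From there to the end of the gene replicate 1 had a single peak, at chr3:87911101-87917944, and its fold was 13.1. In replicate 2 the peak at chr3:87912504-87917520 had a fold of 19.5, the highest of any peak on these 10 genes. Both summits lay in exon block 9 of 10, 8.27 and 8.28 kb after the start.

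BRPF1, BRPF3 and BRD1 are related scaffold proteins with PHD fingers, a bromodomain and a C-terminal PWWP domain, and they hold together the acetyltransferase complexes of MOZ, MORF and HBO1. Their genes were among the most completely covered of the 10. Brpf3, on the plus strand of chromosome 17 from 28801090 to 28839949 (38.9 kb), was covered over 92.2% and 90.0%. Its 5′, middle and 3′ sections were covered over 83.2%, 97.8% and 95.5% in replicate 1 and 78.3%, 98.8% and 93.0% in replicate 2. Of its 17 exon blocks, 14 lay wholly in peaks in both replicates and the first 2 had no covered base. The widest peak was 17.5 kb long in replicate 1, which had 6 peaks on the gene, and 14.3 kb in replicate 2, which had 9.

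Brpf1 spans 17.7 kb on the plus strand of chromosome 6, from 113307137 to 113324860. It had coverage of 85.7% in replicate 1 and 86.0% in replicate 2, and 99.1% of the bases covered in either replicate were covered in both, the most of the 10 genes. Peaks began 2.30 kb after the start in replicate 1 and 2.34 kb in replicate 2. Beyond that, only 1 gap of 0.139 kb was left uncovered in both replicates. The middle section was covered whole in both replicates. An antisense gene, Gm15492, overlaps 91.4% of Brpf1, so the mark cannot be assigned to one strand. The 1.53 kb of Brpf1 outside that overlap, at the 5′ end, had no covered base.

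Brd1, on the minus strand of chromosome 15 from 88687034 to 88734233 (47.2 kb), was covered over 87.1% in replicate 1 and 83.1% in replicate 2. Its widest inner gap was 1352 bp long, in the intron before exon block 8, and that block was covered over 9.20% and 0%. Exon blocks 2 to 7 before it were covered whole in both replicates. The replicates differed in the first intron of Brd1 (43.0% against 18.8%) and in its last exon block (96.7% against 61.6%).

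Glyr1 encodes a PWWP protein that helps the demethylase LSD2 and polymerase passage through nucleosomes. The gene lies on the minus strand of chromosome 16 from 5013909 to 5049863 (35.96 kb). Coverage of 93.4% and 92.6% placed it at rank 120 of 21911 coding genes by the lower replicate. The middle section was covered whole in both replicates, and the widest inner gap common to both was the last 0.359 kb of the gene. Accordingly, the 500 bp on either side of the gene end were covered over 14.1% in replicate 1 and 4.70% in replicate 2, the lowest end window among the 8 marked readers. The start lies 193 bp from the start of Ubn1, which runs the other way, and the interval between both starts had no covered base.

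Pwwp2a encodes a protein that binds nucleosomes with the histone variant H2A.Z and recruits parts of the NuRD deacetylase complex. It lies on the plus strand of chromosome 11 from 43681998 to 43721491 (39.5 kb). Coverage was 69.1% in replicate 1 and 62.8% in replicate 2, a mean of 65.9% ± 4.43 (SD, n = 2). It was the marked reader whose mark was most broken up, with 21 peaks in replicate 1 and 23 in replicate 2, and its highest folds, 8.64 and 9.29, belonged to the peak nearest the start. The 5′ section was covered over 81.1% and 79.4%, the middle section over 67.8% and 55.6%, and the 3′ section over 58.2% and 53.4%. Its 3′ section was thus covered less than its 5′ section in both replicates, while the other 7 marked readers had more in the 3′ section.

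Coverage of Pwwp2a was lower past 43707191, where its transcript with the longest coding sequence ends. Other transcripts run on past it. Up to that end 76.8% and 69.6% of the bases were covered. In the next 9.84 kb, an intron of transcripts that run further, the shares were 44.1% and 38.1%, with an uncovered gap of 2.63 kb in both replicates. From the end of that intron to the end of the gene, 4.46 kb, they were 80.4% and 78.6%. Coverage was thus lowest within that intron and high again behind it, in each replicate.

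Zmynd11, which encodes a bromodomain and PWWP reader that restrains elongating polymerase, is the longest of the 10 at 80.5 kb. It lies on the minus strand of chromosome 13, from 9684833 to 9765330. Only 5.37% of it was covered in replicate 1 and 3.33% in replicate 2, and no base of the 5′ and middle sections was covered in either. The first covered base came 68.3 kb and 73.6 kb after the start. Its intron 3, 28.5 kb long, had no peak. An antisense gene, Gm36423, overlaps the last 4.71 kb, and there 38.6% and 48.6% of the bases were covered. Outside that overlap the shares were 3.31% and 0.521%. Within the overlap, the mark of Zmynd11 and that of Gm36423 cannot be told apart. The highest fold of a Zmynd11 peak was 3.82 in replicate 1 and 4.64 in replicate 2.

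**Figure D2:**
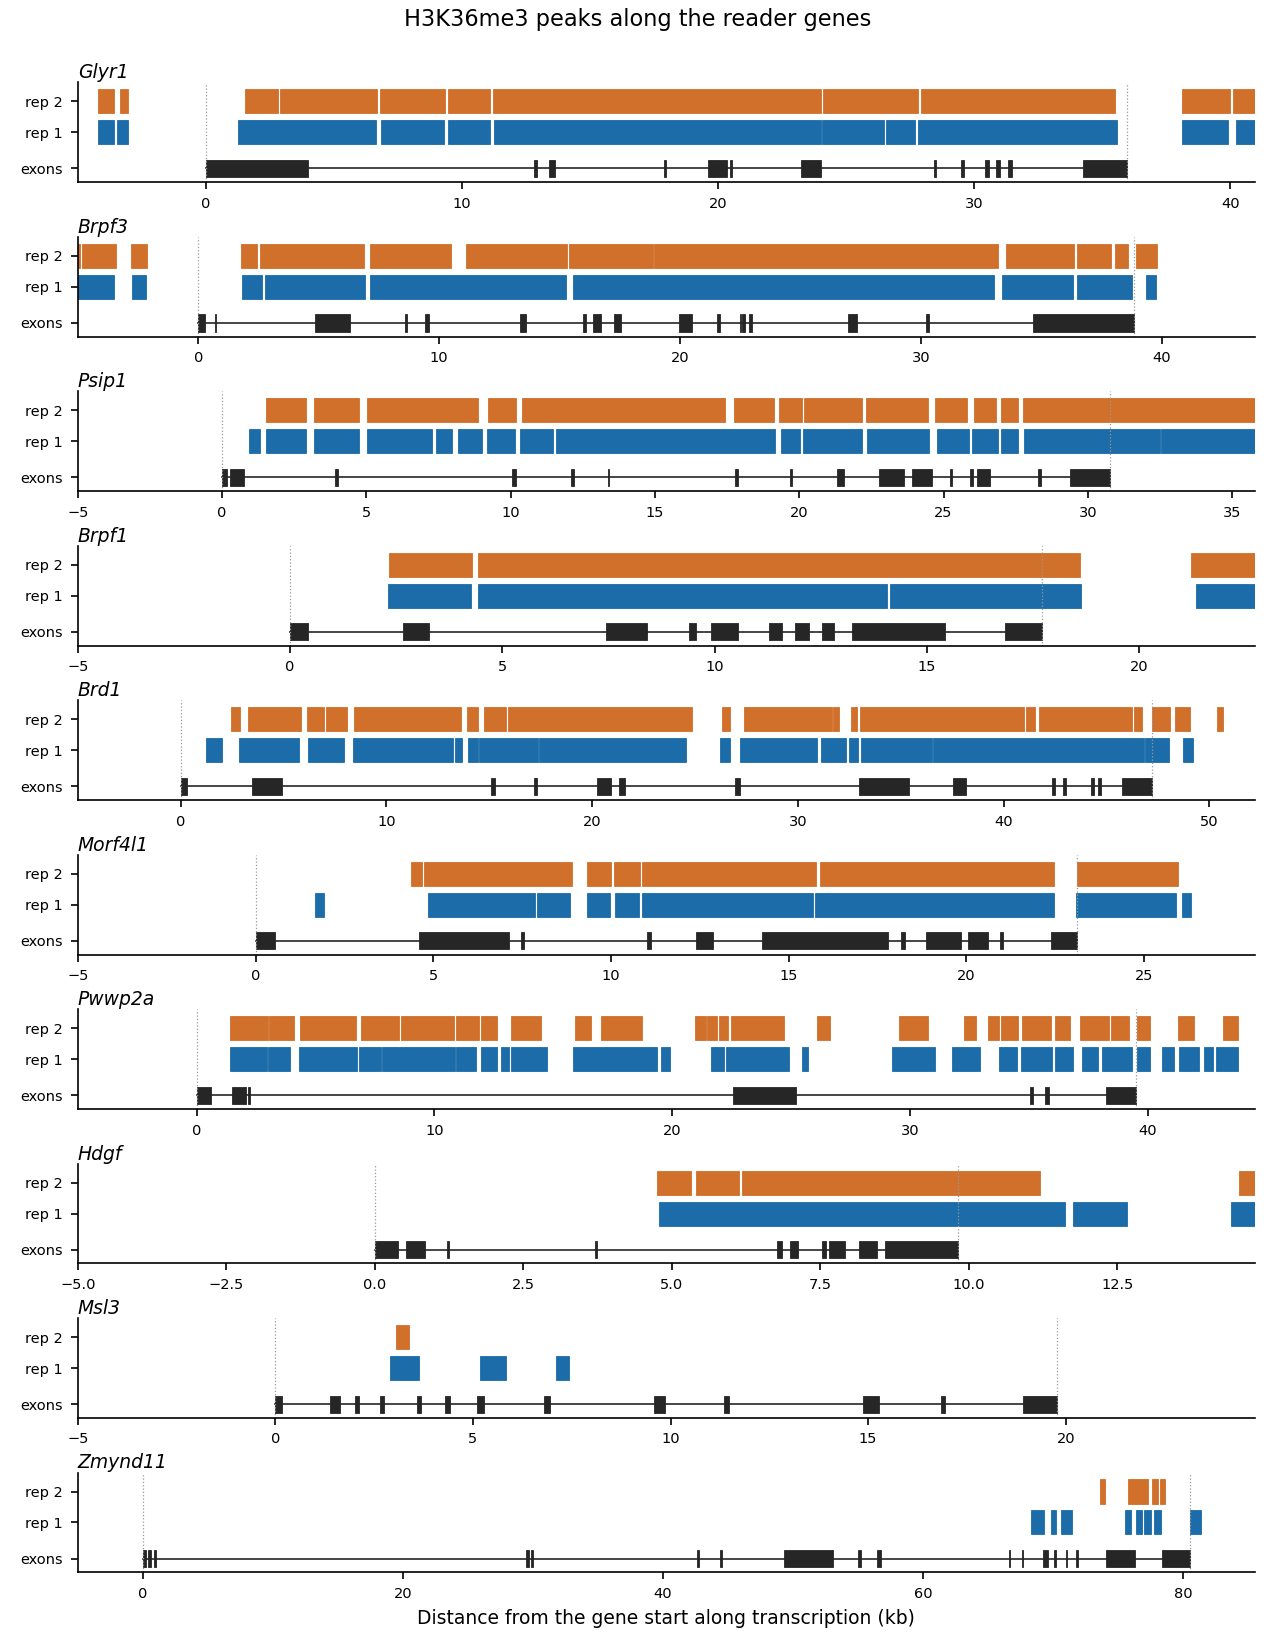
Peaks of replicate 1 (blue) and replicate 2 (orange) and exons merged over transcripts (black) along each reader gene with 5 kb on either side, by distance from the gene start along transcription (kb); dotted lines mark start and end. Each panel has its own scale. Peaks start 0.946 to 4.78 kb after the start in the 8 marked genes, are absent from the first 68.3 kb of Zmynd11 and lie in the 5′ part of Msl3.

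Morf4l1 encodes MRG15, a chromodomain protein shared by the NuA4 acetyltransferase and Sin3 deacetylase complexes. It lies on the minus strand of chromosome 9 from 90091665 to 90114774 (23.1 kb). Coverage was 74.1% and 75.2%, a mean of 74.6% ± 0.786 (SD, n = 2). Most of the uncovered part was at the 5′ side: the intron after the second exon block, 4.04 kb long, was covered over 6.68% and 5.89%. One small peak in that intron was called only in replicate 1, where the first covered base lay 1.67 kb after the start, against 4.36 kb in replicate 2. The middle and 3′ sections were covered over 90.4% and 91.4% in replicate 1 and 92.4% and 90.6% in replicate 2, but the last exon block over only 17.9% and 13.8%. Gm26882, a lincRNA gene inside Morf4l1 on the opposite strand, was covered whole in both replicates.

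Msl3 encodes the chromodomain subunit of the MSL complex, which acetylates histone H4. It is the only X-linked reader of the 10, on the minus strand from 168654117 to 168673898 (19.8 kb). In replicate 1 it had 3 peaks, covering 8.54% of the body, and in replicate 2 it had 1 peak of 349 bp, covering 1.76%. All lay in the first 7.43 kb after the start, and the 3′ section had no covered base. Their folds ran from 3.67 to 4.37. Among marked genes, the median covered share was 43.0% and 41.1% for 180 on the X and 57.4% and 53.3% for 7974 on autosomes. The part of the single X of these male cells in the Msl3 values was not tested.

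The call of Msl3 depended on the peak set. It came to 12.2% in the unthresholded sets of the individual replicates, 13.5% and 12.03% in the 2 sets of peaks found in both replicates, and 10.1% in the pooled set. Zmynd11 passed 10% only in 1 of the sets found in both replicates, with 10.6%, and had 7.89% in the unthresholded sets, 9.56% in the pooled set and 9.98% in the other set found in both. Over the 34.1 kb of its longest coding transcript, which starts further downstream, it had 12.7% in replicate 1 and 7.60% in replicate 2.

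By position along the body, 7 of the 8 marked readers had more coverage in the 3′ section than in the 5′ section in both replicates, all but Pwwp2a, as did 85% of the marked genes that span 3 kb or more. The gain between these sections, in percentage points, ranged from 9.50 and 11.1 in Glyr1 to 100 and 100 in Hdgf, with 51.0 and 48.1 in Morf4l1 and 40.6 and 41.9 in Brpf1 between them. Over all 10 genes the median gain was 14.9 points in replicate 1 and 14.7 in replicate 2, while the medians of marked genes were 35.8 and 37.7. The reader medians here and in the next sentence include the unmarked Msl3 and Zmynd11, so the sets differ in kind. The median 5′ section was covered over 67.8% and 65.8% in the readers and 32.2% and 26.9% in marked genes, and the median 3′ section over 93.1% and 90.8% against 78.5% and 76.0%. No base within 500 bp of the start was covered in any of the 10 in either replicate. Among the 8 marked readers this was 8 of 8, against 94.1% of marked genes. At the gene end, 6 of the 8 had at least 50% of the 1 kb window around it covered in both replicates, against 55% of marked genes, and the exceptions were Glyr1 and Brpf3.

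With the body cut into 10 equal parts, the mean coverage of the 10 genes was 27.6% ± 3.33 (SD, n = 2) in part 1, 55.0% ± 0.409 in part 2 and 66.4% ± 2.21 in part 3. It reached 75.2% ± 3.06 in part 9. Marked coding genes of at least 3 kb averaged 12.5% ± 1.58 in part 1 and 70.8% ± 1.04 in part 9. The mean over the readers includes Msl3 and Zmynd11, the former covered mainly in parts 2 and 3 and the latter in parts 9 and 10.

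**Figure D3:**
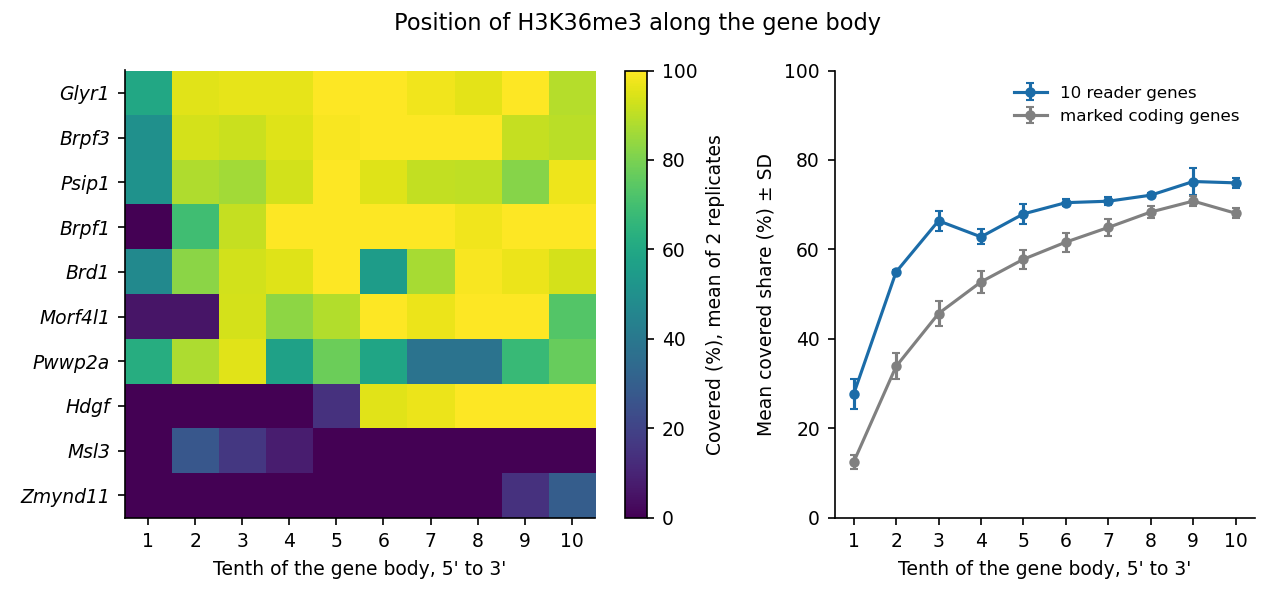
Covered share in 10 equal parts of the gene body, 5′ to 3′. Left, each reader gene as the mean of both replicates (%, colour scale). Right, the mean over the 10 readers (blue) and over 7789 marked coding genes of at least 3 kb (grey), with the SD over 2 replicates; the readers go from 27.6% to 75.2% and the marked genes from 12.5% to 70.8% from part 1 to part 9.

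Exons merged over transcripts were compared with introns over the pooled bases of the 10 genes, and not over other marked genes. Exonic bases were covered over 70.5% and 68.1% and intronic bases over 58.2% and 55.6%, a ratio of 1.22 ± 0.00818 (SD, n = 2). Zmynd11, with long uncovered introns, weighed heavily on that value: without it the ratio was 1.08 in each replicate, an alternative chosen after seeing the data. Among single genes it was 1.73 and 1.80 in Hdgf, 1.28 and 1.29 in Morf4l1, close to 1 in Brpf3 (1.02 and 0.996), and below 1 in Psip1 (0.942 and 0.956) and Glyr1 (0.828 and 0.770). Of the barely covered genes, Msl3 was the lowest of all in both replicates, with 0.470 and 0. Zmynd11 had 1.47 and 2.40, below Hdgf in replicate 1 and the highest in replicate 2. In Glyr1 the first exon block, 4.00 kb after merging, was covered over only 68.3% and 59.6% and the last over 78.8% and 73.3%. The other 9 genes had no covered base in their first exon block, and 94.1% of marked genes had none within 500 bp of the start. Of 131 exon blocks in the 10 genes, 71 were covered whole in both replicates and 37 were uncovered in both, of which 11 were in Msl3 and 13 in Zmynd11. Exon blocks of other coding genes were not counted, so whether these numbers are particular to the readers was not tested.

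The replicates placed the mark on largely the same bases of the marked readers. Bases covered in both, as a share of those covered in either, were 99.1% in Brpf1, 97.2% in Glyr1, 96.6% in Hdgf, 94.5% in Brpf3, 94.0% in Morf4l1, 93.1% in Psip1, 89.0% in Brd1 and 75.3% in Pwwp2a. In Zmynd11 and Msl3 they were 26.0% and 20.7%, though all 349 bp of Msl3 covered in replicate 2 were also covered in replicate 1. This measure cannot be low where most of a body is covered in each replicate, and it was not computed for other marked genes. Replicate 1 had the higher coverage in 6 of the 8, all but Brpf1 and Morf4l1, as in 68.8% of marked genes. Replicate 2 had the higher fold over the body in 7 of the 8, all but Pwwp2a, as in 77.7% of marked genes, so these differences ran in the same direction genome-wide.

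CpG density inside and outside peaks was compared for each gene, with bases covered in both replicates against bases covered in neither. All 8 marked readers had more CpG per kb outside peaks, as did 76% of the marked genes with at least 500 bp of each kind. The values inside and outside were 8.60 and 30.7 per kb in Hdgf, 8.90 and 40.7 in Psip1, and 17.2 and 56.7 in Brpf3. Without the first 2 kb of each gene this difference was smaller or reversed in each of the 8. Hdgf then had 8.60 inside and 8.71 outside, Pwwp2a 7.49 and 7.76, and Psip1 8.71 and 6.32. Of the 7 marked readers with at least 500 bp of each kind past the first 2 kb, 4 still had more outside, against 28.3% of marked genes. Brpf1, with 438 bp uncovered there, kept 41.1 per kb outside against 11.9 inside.

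**Figure D4:**
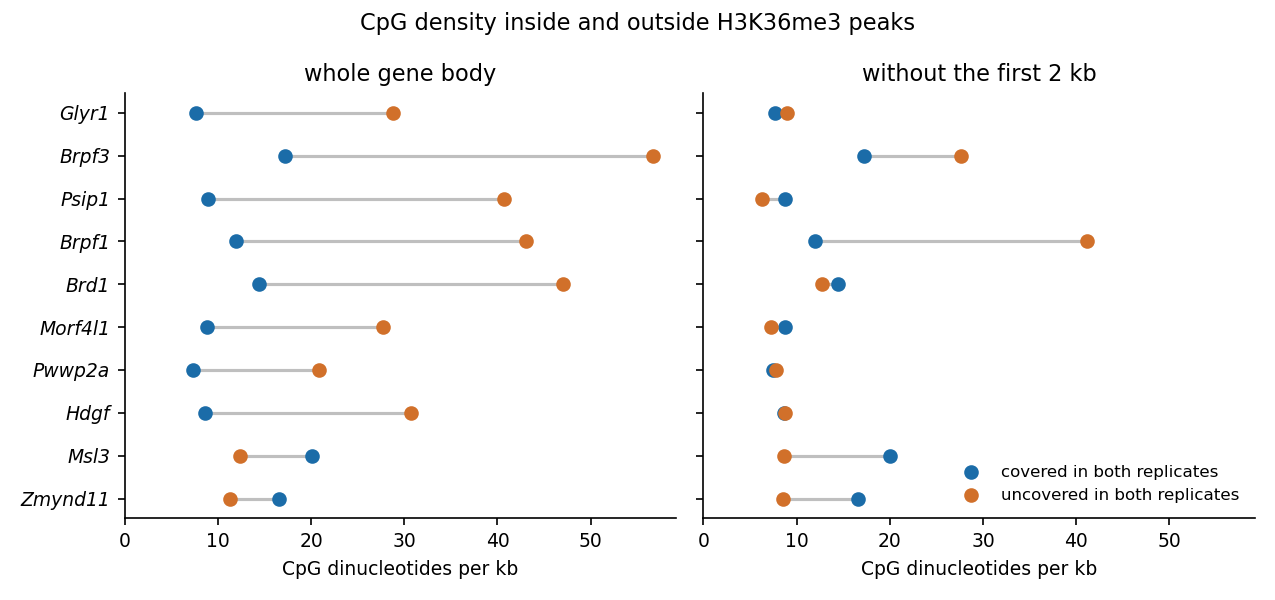
CpG dinucleotides per kb of reference sequence in bases covered in both replicates (blue) and in neither (orange), for each reader gene, over the whole body (left) and without its first 2 kb (right). On the left the 8 marked genes have 20.8 to 56.7 per kb outside peaks and 7.33 to 17.2 inside. On the right the 2 values lie close together except in Brpf1, Brpf3, Msl3 and Zmynd11.

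Most bases of the readers started a word of 32 bases that is found once in the reference chromosomes. Such starts made up 88.7% to 98.0% of the bases covered in both replicates in the 8 marked genes, and 77.8% to 96.2% of the bases covered in neither. The lowest value outside peaks was that of Brd1. In Zmynd11 92.8% and in Msl3 86.5% of uncovered bases started such a word. Read length is not given in the sources used here, so the part of mappability in the gaps was not tested.

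Other genes of H3K36 methylation were listed with the readers' partners. Of 74 such genes, each counted once, 67 were marked, against 37.2% of all coding genes. All 8 methyltransferase genes were marked, but at a median of only 34.0% and 28.5%. Nsd1 was highest, with 85.7% and 82.7%, followed by Setd2, the gene of the main H3K36 trimethylating enzyme, with 62.8% and 53.0%. By the lower replicate of each gene, Setmar, with 10.7% and 21.6%, and Smyd2, with 17.6% and 25.2%, were lowest. Nsd2, with 23.3% and 17.8%, and Nsd3, with 20.5% and 17.9%, lay below both of them in replicate 2. Of 8 demethylase genes 7 were marked, with medians of 54.9% and 52.4%. Kdm4a (87.6% and 88.5%) and Riox2 (86.1% and 86.0%) were highest, Kdm2b had 46.8% and 34.7%, and Kdm4d had no covered base.

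Of 19 further genes listed for PWWP and Tudor readers 18 were found, and 13 of these were marked, against 37.2% of all coding genes. Their medians were 27.9% and 24.5%, below those of the 10 readers. They ran from Msh6, a mismatch repair gene (93.3% and 91.7%), and Mum1 (93.2% and 90.9%) to 3 with no covered base, Hdgfl1, Hdgfl3 and Mum1l1. Paralogs of the readers, singled out after their values were seen, had these values. In the HDGF family, Hdgfl2 was covered over 81.1% and 81.7% where Hdgfl1 and Hdgfl3 were at 0. Pwwp2b, the paralog of Pwwp2a, had 32.6% and 23.5%. Morf4l2, the paralog of Morf4l1, had 47.9% and 43.1%.

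Genes for the protein partners, listed with earlier results of these data known, were marked in nearly every case, against 37.2% of all coding genes. All 6 listed partners of the BRPF scaffolds were marked, with medians of 76.9% and 68.7%. Kat7, the gene of HBO1, had 89.1% and 88.7%, Ing5 had 90.4% and 88.5%, Meaf6 had 44.1% and 44.3%, and Kat6a, the gene of MOZ, had 46.9% and 41.5%. Partners of MRG15 were marked in 21 of 22 cases, with medians of 77.2% and 74.8%. Trrap (91.5% and 90.7%) and Brd8 (89.7% and 90.9%) were highest, Mrfap1 had 11.5% and 10.7%, and Epc2, with 11.9% and 9.57%, missed the threshold in replicate 2.

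The 3 MSL partner genes were all marked, against 37.2% of all coding genes and unlike Msl3 itself. Msl1 had 77.7% and 70.3%, Kat8, the acetyltransferase gene, had 70.0% and 74.0%, and Msl2 had 25.2% and 24.3%. All 6 LEDGF partner genes were marked, with medians of 73.1% and 67.9%, from Dbf4 (88.2% and 84.7%) and Iws1 (71.8% and 70.0%) to Pogz (58.2% and 54.6%) and Cdca7l (15.004% and 12.4%). All 6 partner genes of GLYR1 and PWWP2A were marked, with medians of 75.2% and 69.0%. Rbbp4 had 90.6% and 87.4%, Mta2 83.6% and 78.8%, Kdm1b, the gene of LSD2, 47.2% and 49.9%, and Mta3 46.7% and 38.9%.

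**Figure D5:**
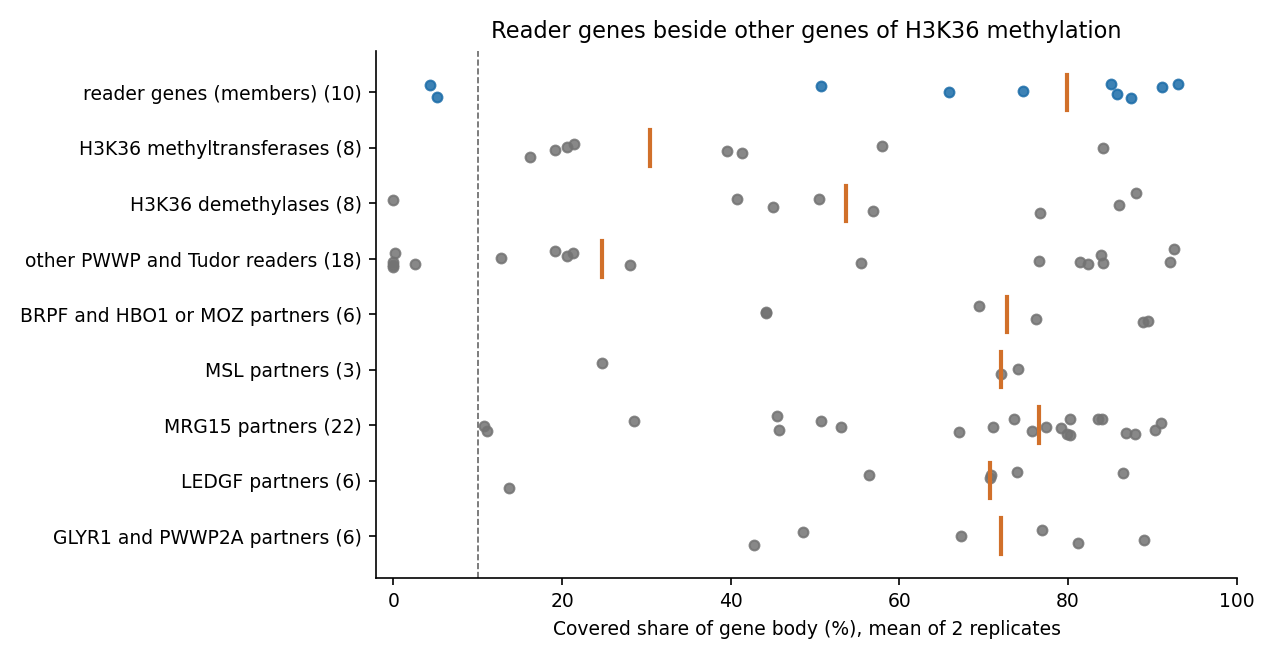
Covered share of the gene body (%, mean of 2 replicates) for the 10 reader genes (blue) and for listed methyltransferases, demethylases, other readers and partners (grey), 1 point per gene. Orange bars are medians of these means, the dashed line is at 10%, and the number of genes is in parentheses. The 8 marked readers lie at 50.7% or above, and Msl3 and Zmynd11 lie at 5.15% and 4.35%. The methyltransferase genes, all of them marked, reach from 16.2% to 84.2%.

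The profile of the readers was set beside that of every other coding gene of at least 3 kb, over 20 values, 10 parts of the body in 2 replicates. The readers' mean profile includes the barely covered Msl3 and Zmynd11, so it is not the profile of any single reader. Smarca5, a chromatin remodeller gene, lay nearest to this mean profile, at a Euclidean distance of 45.0 percentage points. Bcat1, for a branched-chain amino acid transaminase, followed at 58.4, and Tmem87a, for a membrane protein, at 58.8. Smarca5 was covered over 72.2% in replicate 1 and 66.5% in replicate 2.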

How the data were processed

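H3K36me3 ChIP-seq peaks of 2 biological replicates were used. Per the labels and file lists, the deposited peak sets are on mm10 (aligner, peak caller and read length: not given in the sources used here). The reference is of strain C57BL/6J, and the part of strain differences was not tested. The deposited fold per peak is the authors' ratio over background, and −log10 q is the authors' value too. Main values used each replicate's own set supported by pseudoreplicates (random divisions of its reads). Another deposited set, on mm9, was not used. Depth is unknown, so narrower coverage can reflect fewer reads. Where separate biosamples shared culture steps, the SD may be partly technical.

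Gene bodies were the GENCODE M21 spans; where a coding symbol had several records the longest was kept. Covered shares, positions and exons were computed with Python 3.11.15 and numpy 2.4.6, after a check on simulated peaks. CpG, words and motifs came from GRCm38.p6 (RefSeq), and figures from matplotlib 3.10.9. Members and lists were chosen with earlier results of these data known. Named genes were all 10 members, the 2 highest and 2 lowest of each list (by the lower replicate), and the 3 nearest profiles. Alternatives were each replicate's unthresholded set, the 2 sets found in both replicates and the pooled set supported by pseudoreplicates. Further ones were a stricter q, each replicate alone, other thresholds and transcripts.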

Additional observations from a re-analysis of the deposited data

How the results depend on the processing

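The number of marked readers was 8 at thresholds of 5, 25 and 50% of the body, with −log10 q of at least 5, over the longest coding transcript and with either replicate alone. Unthresholded sets gave 9, as did the pooled set and the main run's set found in both replicates, and there were 10 in the other run's set found in both. The median covered share, 79.5% as the mean of both replicates, was 83.1% and 83.0% in the sets found in both, 82.6% in the pooled set, 78.8% with the stricter q and 80.6% over the longest coding transcript. The median gain, 14.8 points, came to 14.4 for the unthresholded sets, 16.5 and 14.3 in the sets found in both, 14.1 in the pooled set, 14.5 with the stricter q, 15.9 over the longest coding transcript and 7.999 with the body cut into 2 equal parts. The exon to intron ratio, 1.22, was 1.19 with the unthresholded and pooled sets and the main run's set found in both, 1.18 in the other run's, 1.23 with the stricter q, 1.14 with equal weight per gene, 1.24 in the 3′ section and 1.09 over the longest coding transcript; the cause was not tested. Added after seeing the data, it was 1.08 without Zmynd11 and 1.05 without Zmynd11 and Msl3. No value changed direction. Others added likewise gave 85.9% for Psip1 without the stretch shared with Snapc3 and 1.92% for Zmynd11 without that shared with Gm36423. Without replicate 1 Msl3 fell to 1.76%, and without replicate 2 it was 8.54%. Depth is unknown, so no limit of detection can be given for Msl3 and Zmynd11.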

Other observations

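Covered sequence next to the reader genes was measured with the same peaks. Upstream of Brpf3, 44.3% in replicate 1 and 47.0% in replicate 2 of the 19.3 kb between Mapk13 and the lncRNA gene AC140278.1 were covered, with the last covered base at 28798978. AC140278.1 itself, which starts within Brpf3 and runs the other way, had no covered base, so this mark lies past the lncRNA's annotated end and outside any annotated gene. Past the end of Hdgf, the 3.37 kb before Mrpl24 were covered over 80.8% and 41.2%. The 8.02 kb between Pwwp2a and Ttc1 were covered over 53.6% and 33.3%, and the 2.11 kb between Brpf1 and Ogg1 over 42.5% and 41.5%. The covered bases between Brpf1 and Ogg1, from 113324861 to 113325758, lie inside the antisense gene Gm15492, annotated from 113308666 to 113326747.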
